A study of Mus musculus with 6 samples.

Results

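The MEIS, PBX and PREP genes encode homeodomain transcription factors of the TALE class, named for a loop extension of 3 amino acids in the homeodomain. The genes described here are the 9 rows of the expression table whose symbol is Meis1, Meis2, Meis3, Pbx2, Pbx3, Pbx4, Pknox1, Pknox2 or Tgif1, of 17924 genes in all. They were taken by name. The libraries came from dermal fibroblasts of newborn (P0) mice, taken from the dorsal skin and cultured for 14 days in adipocyte differentiation medium. CTL cells carried Nelfb fl/wt or Nelfb wt/wt together with Pdgfra-Cre+, and Nelfb-/- cells carried Nelfb fl/fl with Pdgfra-Cre+, on a C57BL/6J background. Cells of both groups therefore carried the Cre transgene, which is driven by the promoter of Pdgfra, a receptor gene of mesenchymal and adipocyte precursor cells. Nelfb encodes a subunit of the negative elongation factor, a complex that acts on RNA polymerase II close to the start of genes. Each group was sequenced as 3 biological replicates. The labels do not say how many animals each culture came from, nor which of the CTL genotypes each CTL library had.

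MEIS and PREP proteins bind DNA together with PBX proteins, and the pairs also form complexes with HOX proteins. MEIS and PREP proteins compete for the same PBX partner, and binding to them brings PBX proteins into the nucleus. Meis1 is best known from blood stem cells and leukaemia, while TGIF1 is a TALE repressor that works with SMAD proteins and lowers the response to TGF-beta and to retinoic acid. The question addressed by the comparison was how the levels of these partners stood in Nelfb-/- cells after exposure to a medium that turns precursors into fat cells.

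Values are given in CPM, the reads assigned to a gene for every 1e+06 reads of its library, with no correction for gene length. Where 3 values are listed for a group, they are those of replicates 1, 2 and 3 in that order. The libraries held between 17.2 M and 29.4 M reads (M, 1e+06), and 3 reads, taken as the floor, corresponded to between 0.102 and 0.175 CPM. Nelfb was downregulated from a mean of 19.8 CPM ± 2.53 (SD, n = 3) in CTL to 4.98 CPM ± 0.938 (SD, n = 3) in Nelfb-/- cells, with a log2 fold change of -1.99 (SE 0.22, adjusted p = 0.00502 by limma). Among the 16251 genes tested, 1824 passed an adjusted p of 0.05 and a 2-fold change, 1232 of them upregulated (7.58%) and 592 downregulated (3.64%). This count fell to 426 without Nelfb-/- replicate 3, to 759 without CTL replicate 2, to 871 without CTL replicate 1 and to 945 without Nelfb-/- replicate 2. With quantile normalisation 1014 genes were upregulated and 834 downregulated. The labelled cell type was checked against 11 adipocyte markers, which were all detected and summed to between 27607 and 45556 CPM in CTL and to between 19884 and 28194 CPM in Nelfb-/- cells. The lowest CTL sum was that of CTL replicate 3, below the sum of Nelfb-/- replicate 2. The markers did not all move alike, with 9 of the 11 at a log2 fold change below 0 and 2 above 0. Plin4 was higher in every Nelfb-/- library than in any CTL library (log2 fold change 0.76, SE 0.25, adjusted p = 0.0847 by limma). Cidec had a log2 fold change of 0.03 (SE 0.43).

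None of the MEIS, PBX and PREP genes passed both limits (limma), and 1 of the 8 that were tested, Pbx2, passed the adjusted p alone. Pbx2 was downregulated in Nelfb-/- cells to 0.613 of its CTL level, while the log2 fold changes of Pknox1, Pknox2, Meis1, Meis3 and Pbx3 were above 0 and those of Meis2 and Tgif1 were below 0 without passing the test. For comparison, 11.2% of all genes tested passed both limits and 15.8% passed the adjusted p alone. With library quality weights 7 of the 8 genes (all but Pbx3) passed the adjusted p, beside 60.7% of all genes tested. At an unadjusted p under 0.05, 3 of the 8 tested genes were found (Meis3, Pbx2 and Pknox1), beside 32.5% of all genes tested. The median log2 fold change of the 8 genes was 0.35, beside 0.07 over all genes tested. The ninth gene, Pbx4, had a mean below 10 reads and was not tested. Groups did not overlap at 4 of the 8 genes, with Meis3 and Pknox1 higher and Meis2 and Pbx2 lower in every Nelfb-/- library than in any CTL library. Over all genes tested, 38.1% had groups that did not overlap, 22.0% with Nelfb-/- cells higher and 16.1% with Nelfb-/- cells lower. The exact two-sided permutation p of each of these 4 genes was 0.1, the smallest that 3 libraries against 3 can give.

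**Figure D1:**
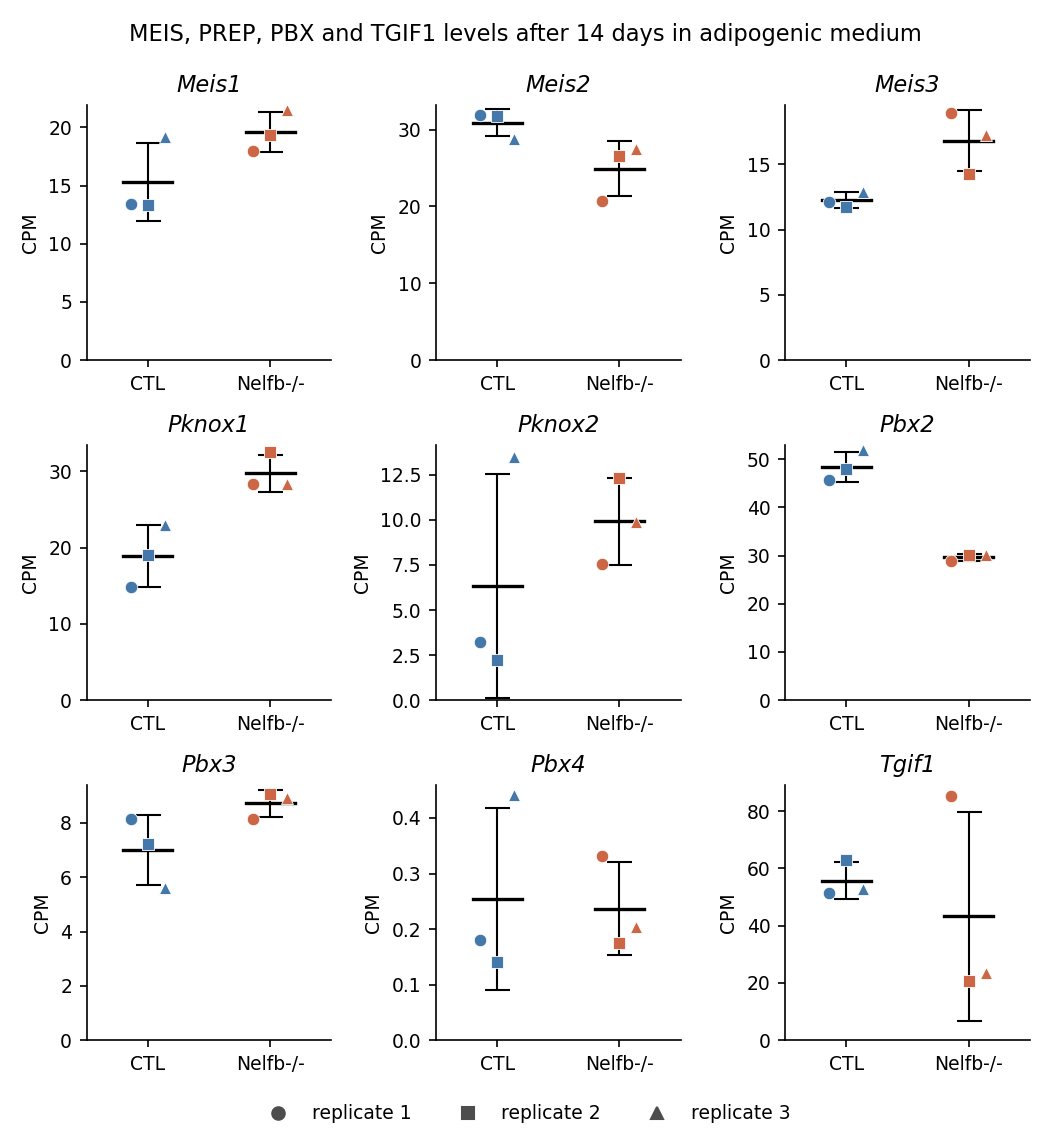
CPM of the 9 genes in each library, with the 3 CTL libraries at the left (blue) and the 3 Nelfb-/- libraries at the right (orange) of each panel. Symbols give the replicate number, horizontal lines the mean and error bars the SD, and each vertical axis starts at 0. Pbx2 lay between 45.6 and 51.8 CPM in CTL and between 28.8 and 30.1 CPM in Nelfb-/- cells, whereas Tgif1 was spread from 20.7 to 85.2 CPM among the Nelfb-/- libraries.

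Pbx2 (ENSMUSG00000034673, chr17:34591266-34597400 on GRCm38, plus strand) encodes one of the PBX proteins, the shared partners of MEIS, PREP and HOX proteins. The CTL libraries held 45.6, 47.9 and 51.8 CPM, and the Nelfb-/- libraries held 28.8, 30.1 and 30.0 CPM. The Nelfb-/- libraries were thus close to each other and all below the lowest CTL library. The mean was 48.4 CPM ± 3.14 (SD, n = 3) in CTL against 29.6 CPM ± 0.734 (SD, n = 3) in Nelfb-/- cells. Each value rested on between 517 and 1523 reads. The log2 fold change of Pbx2 was -0.71 (SE 0.12, 95% interval -0.99 to -0.42, adjusted p = 0.0143 by limma). Leaving out single libraries moved it between -0.75 and -0.66, but the adjusted p rose to 0.0554 without CTL replicate 1, to 0.0662 without CTL replicate 2, to 0.0559 without Nelfb-/- replicate 2 and to 0.0784 without Nelfb-/- replicate 3. Of the Pbx2 exons, 6.24% overlap those of Gpsm3 on the same strand, and reads there cannot be assigned to either gene with certainty. Gpsm3 stood at 7.89, 6.91 and 4.74 CPM in the CTL libraries and at 21.9, 9.10 and 12.0 CPM in the Nelfb-/- libraries, opposite in direction to Pbx2 (log2 fold change 1.06, SE 0.37, adjusted p = 0.102 by limma).

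Since Nelfb acts near start sites, the bases before the start of Pbx2 are shown as the upstream region of the gene that passed the test, and those of Meis1 as the region of a gene whose groups overlapped. RefSeq promoter windows of 300 bases (250 before the start and 50 after, GRCm38.p6) were given for 6 of the 9 genes, with 1 window each for Meis1, Meis2, Meis3, Pbx2 and Pbx4 and 5 windows for Tgif1. Capitals mark matches to 4 motifs searched on both strands, TGACAG (a MEIS and PREP motif), TGATTNAT (a PBX and HOX motif), GGGCGG (the GC box bound by SP factors) and TATAAA (the TATA box). The Pbx2 sequence is the whole upstream stretch at chr17:34592009-34592258 (plus strand), which lies within the annotated span of the gene but holds no annotated exon, and the Meis1 sequence covers the 234 upstream bases outside annotated exons at chr11:19018986-19019219 (minus strand).
Pbx2 upstream: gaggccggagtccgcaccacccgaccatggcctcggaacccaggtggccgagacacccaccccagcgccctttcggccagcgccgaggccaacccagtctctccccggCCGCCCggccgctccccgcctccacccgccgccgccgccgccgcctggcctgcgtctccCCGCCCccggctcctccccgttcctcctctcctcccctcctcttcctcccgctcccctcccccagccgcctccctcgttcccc
Meis1 upstream: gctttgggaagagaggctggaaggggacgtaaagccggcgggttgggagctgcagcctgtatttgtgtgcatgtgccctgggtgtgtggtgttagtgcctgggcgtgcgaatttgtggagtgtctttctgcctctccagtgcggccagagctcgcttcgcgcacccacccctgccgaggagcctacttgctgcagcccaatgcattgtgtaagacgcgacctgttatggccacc
The Pbx2 stretch held 2 matches to GGGCGG, both on the opposite strand, whose first bases lie 142 and 83 bases before the start. The Meis1 stretch held no match to any of the 4 motifs. GC content was 76.0% in the Pbx2 window and 58.3% in that of Meis1, with a median of 52.7% over all 32851 windows. Matches to GGGCGG occur in 35.7% of all windows, so the matches at Pbx2 are shared with many genes. Among the 10 windows of the 6 genes, TGACAG was found in 2 (both of Tgif1) and TGATTNAT in 1 (Tgif1), while the shares over all windows were 19.2% and 3.22%. GGGCGG was found in 3 windows, that of Pbx2 with 2 matches and 2 of the Tgif1 windows with 1 and 5 matches. TATAAA was found in 1 window (Meis2) and in 13.6% of all windows. A match describes the letters of a window and does not show that a factor binds there.

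Pbx3 (ENSMUSG00000038718, chr2:34171457-34373142, minus strand), another PBX gene, was measured at 8.16, 7.23 and 5.61 CPM in the CTL libraries and at 8.16, 9.08 and 8.93 CPM in the Nelfb-/- libraries. CTL replicate 1 reached the level of Nelfb-/- replicate 1, so that the groups overlapped. The log2 fold change was 0.33 (SE 0.21, 95% interval -0.16 to 0.82, adjusted p = 0.318 by limma). It was 0.18 without CTL replicate 3 and 0.13 with quantile normalisation. Pbx4 (ENSMUSG00000031860, chr8:69832491-69872292, plus strand), a PBX gene known chiefly from testis, was close to the floor. About 4, 3 and 13 reads were found in the CTL libraries, and 7, 3 and 5 reads in the Nelfb-/- libraries, which correspond to between 0.140 and 0.442 CPM. A difference at Pbx4 was not detectable at this depth, and without the filter on low values its log2 fold change was 0.0072 (adjusted p = 0.995 by limma).

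Because a ratio of genes within a library does not change when all values of the library are multiplied by 1 factor, Pbx3 was also set against Pbx2. The log2 ratio of Pbx3 to Pbx2 was -2.48, -2.73 and -3.21 in the CTL libraries and -1.82, -1.73 and -1.75 in the Nelfb-/- libraries. All Nelfb-/- libraries had a higher ratio than any CTL library, by a difference of means of 1.04. No test was run on the ratios, and they were chosen as a description.

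Meis1 (ENSMUSG00000020160, chr11:18879817-19018985, minus strand) encodes the founding member of the MEIS family. The CTL libraries held 13.4, 13.3 and 19.2 CPM, and the Nelfb-/- libraries held 18.0, 19.3 and 21.5 CPM. CTL replicate 3 lay above Nelfb-/- replicate 1, and the other CTL libraries lay below every Nelfb-/- library. The means were 15.3 CPM ± 3.37 (SD, n = 3) in CTL against 19.6 CPM ± 1.74 (SD, n = 3) in Nelfb-/- cells, from 286 to 565 reads per library. Its log2 fold change was 0.37 (SE 0.20, 95% interval -0.10 to 0.84, adjusted p = 0.241 by limma). Without CTL replicate 3 it was 0.55 (adjusted p = 0.0517 by limma), and with quantile normalisation it was 0.24. With library quality weights it was 0.61 and passed (adjusted p = 0.00224 by limma). Of the exons of Meis1, 9.77% overlap those of Gm37818 on the same strand, which had a mean of 0.318 CPM, and 8.51% overlap the antisense gene Gm16140, which has no row in the table analysed here.

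The study measured Meis1 with primers of its own, and the positions of the pairs that match its transcripts are given here. The RT-qPCR primers match exonic sequence, and both lie in 6 of the 9 annotated Meis1 transcripts with a product of 209 bases. The primers for the start of Meis1 in CUT&RUN, an assay of DNA bound by a protein, lie at chr11:19018729-19018834, inside exonic sequence of 5 of the 9 transcripts.
Meis1 RT-qPCR forward: agcatgggttcctcggtc
Meis1 RT-qPCR reverse: tctgcgcgaatctgtttgg
Meis1 start, forward: gcccgctttccttgaatcag
Meis1 start, reverse: aatctcccttcagtgcagca
The product of the pair at the start spans 106 bases. The forward RT-qPCR primer lies at chr11:19016171-19016188, while the reverse primer crosses an exon junction. A CPM value sums the reads of the whole gene, so the primers and the RNA-seq values do not cover the same sequence. A further CUT&RUN pair, for the gene body, matched none of the 9 transcripts and was given no position. Values of the primer assays were not used here.

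Meis2 (ENSMUSG00000027210, chr2:115863064-116065839, minus strand), which is expressed in limb and craniofacial mesenchyme during development, had a log2 fold change opposite in sign to that of Meis1. It was at 31.9, 31.8 and 28.8 CPM in the CTL libraries and at 20.8, 26.6 and 27.4 CPM in the Nelfb-/- libraries. The groups did not overlap, but the highest Nelfb-/- library was close to the lowest CTL library. The log2 fold change was -0.32 (SE 0.16, 95% interval -0.70 to 0.06, adjusted p = 0.219 by limma), and it was -0.19 without Nelfb-/- replicate 1. Meis3 (ENSMUSG00000041420, chr7:16175090-16186504, plus strand), the third MEIS gene, was at 12.1, 11.7 and 12.9 CPM in the CTL libraries and at 18.9, 14.3 and 17.3 CPM in the Nelfb-/- libraries. Every Nelfb-/- library was above every CTL library, and CTL libraries differed little from each other (SD 0.594 CPM). Its log2 fold change of 0.45 (SE 0.17, 95% interval 0.05 to 0.85) did not pass the test over all genes (adjusted p = 0.121 by limma).

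The 3 MEIS genes were also read as shares of their sum, as a description without a test. Meis1, Meis2 and Meis3 together reached 57.5, 56.9 and 60.9 CPM in the CTL libraries and 57.7, 60.2 and 66.1 CPM in the Nelfb-/- libraries. Meis2 made up 55.6%, 56.0% and 47.3% of that sum in CTL and 36.0%, 44.2% and 41.5% in Nelfb-/- cells, so that every Nelfb-/- library was below the lowest CTL library. The share of Meis1 overlapped between the groups, at 23.3%, 23.5% and 31.5% in CTL and 31.2%, 32.1% and 32.5% in Nelfb-/- cells. Meis3 made up between 20.6% and 21.1% in CTL and between 23.7% and 32.8% in Nelfb-/- cells. The log2 ratio of Meis1 to Meis2 was -1.25, -1.25 and -0.59 in CTL and -0.21, -0.46 and -0.35 in Nelfb-/- cells. For Meis3 over Meis2 it was -1.40, -1.44 and -1.16 in CTL and -0.13, -0.90 and -0.67 in Nelfb-/- cells. Both ratios were higher in all Nelfb-/- libraries than in any CTL library, and for Meis1 over Meis2 the gap between CTL replicate 3 and Nelfb-/- replicate 2 was small. That of Meis3 to Meis2 could not have come out otherwise, since Meis3 was higher and Meis2 lower in every Nelfb-/- library. How often the ratios of other gene pairs separate was not computed.

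**Figure D2:**
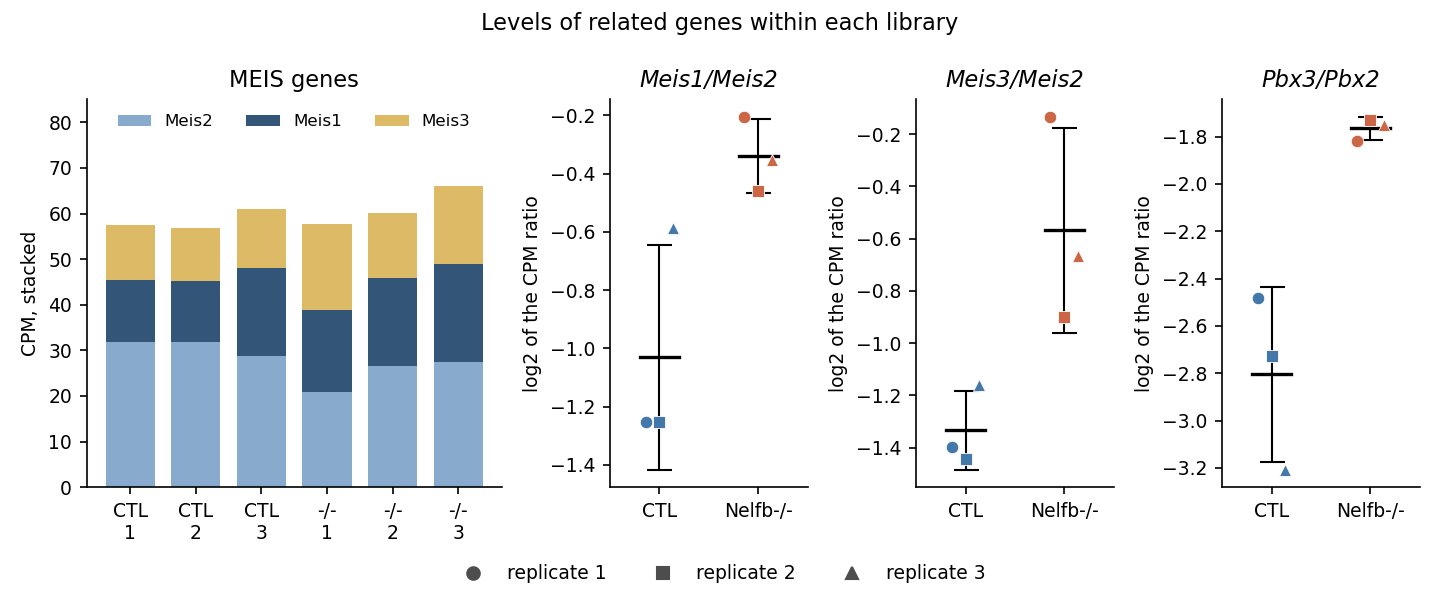
Left, CPM of Meis2, Meis1 and Meis3 stacked for each of the 6 libraries (-/-, Nelfb-/-). Right, log2 of the CPM ratio of Meis1 to Meis2, Meis3 to Meis2 and Pbx3 to Pbx2 in each library, with the mean (line) and SD (error bar) of 3 libraries and the replicate number as the symbol. The stacks reach between 56.9 and 66.1 CPM, and the 3 ratios plotted, which are those of 5 computed whose groups did not overlap, are higher in Nelfb-/- than in CTL libraries. That of Meis3 to Meis2 follows from the opposite separation of the single genes.

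Pknox1 (ENSMUSG00000006705, chr17:31564734-31607693, plus strand) encodes PREP1, which competes with MEIS proteins for PBX. The CTL libraries held 14.8, 19.1 and 23.0 CPM, and the Nelfb-/- libraries held 28.3, 32.6 and 28.4 CPM. The Nelfb-/- libraries were all above the highest CTL library, which was CTL replicate 3. The means were 19.0 CPM ± 4.06 (SD, n = 3) in CTL against 29.8 CPM ± 2.46 (SD, n = 3) in Nelfb-/- cells. The log2 fold change was 0.67 (SE 0.19, 95% interval 0.20 to 1.13), and it missed the limit over all genes (adjusted p = 0.0637 by limma). Without CTL replicate 3 it was 0.82 and passed (adjusted p = 0.0263 by limma). An antisense gene, AC166172.4, overlaps 2.24% of the Pknox1 exons and has no row in the table analysed here. The log2 ratio of Pknox1 to Meis1 lay between 0.15 and 0.52 in CTL and between 0.40 and 0.75 in Nelfb-/- cells, and the groups overlapped. That of Pknox1 to Pknox2 also overlapped, with 2.19, 3.09 and 0.77 in CTL and 1.91, 1.40 and 1.52 in Nelfb-/- cells.

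Pknox2 (ENSMUSG00000035934, chr9:36890982-37147407, minus strand), the second PREP gene, had the largest log2 fold change of the 8 tested genes and the widest interval. It was at 3.25, 2.24 and 13.5 CPM in the CTL libraries and at 7.54, 12.3 and 9.87 CPM in the Nelfb-/- libraries. CTL replicate 3 was the highest of all 6 libraries, while CTL replicates 1 and 2 were the lowest. The log2 fold change was 1.06 (SE 0.65, 95% interval -0.50 to 2.63, adjusted p = 0.310 by limma). Without CTL replicate 3 it was 1.83 (adjusted p = 0.0150 by limma) and without CTL replicate 2 it was 0.55, and with all libraries the comparison was not larger than the spread within CTL. The 8 preadipocyte markers summed to 472, 339 and 967 CPM in the CTL libraries and to 1370, 1923 and 1694 CPM in the Nelfb-/- libraries, so that CTL replicate 3 also had the highest sum of the CTL libraries. Their part in the level of Pknox2 was not tested.

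Tgif1 (ENSMUSG00000047407, chr17:70844205-70853546, minus strand) had both its highest and its lowest values in Nelfb-/- libraries. The CTL libraries held 51.4, 63.1 and 52.7 CPM, whereas the Nelfb-/- libraries held 85.2, 20.7 and 23.6 CPM. Nelfb-/- replicate 1 was above all CTL libraries, and Nelfb-/- replicates 2 and 3 were below all of them. The log2 fold change was -0.68 (SE 0.52, 95% interval -1.93 to 0.58, adjusted p = 0.419 by limma). Without Nelfb-/- replicate 1 it was -1.33 (adjusted p = 0.0109 by limma), which rests on 2 Nelfb-/- libraries, and it was -0.31 without Nelfb-/- replicate 2 and -0.40 without Nelfb-/- replicate 3. Nelfb-/- replicate 1 was also the library with the highest sum of 7 macrophage markers, 4971 CPM beside 1580 and 2697 CPM in Nelfb-/- replicates 2 and 3. In CTL replicates 1, 2 and 3 these markers summed to 610, 322 and 157 CPM. The part of these markers in the level of Tgif1 was not tested.

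**Figure D3:**
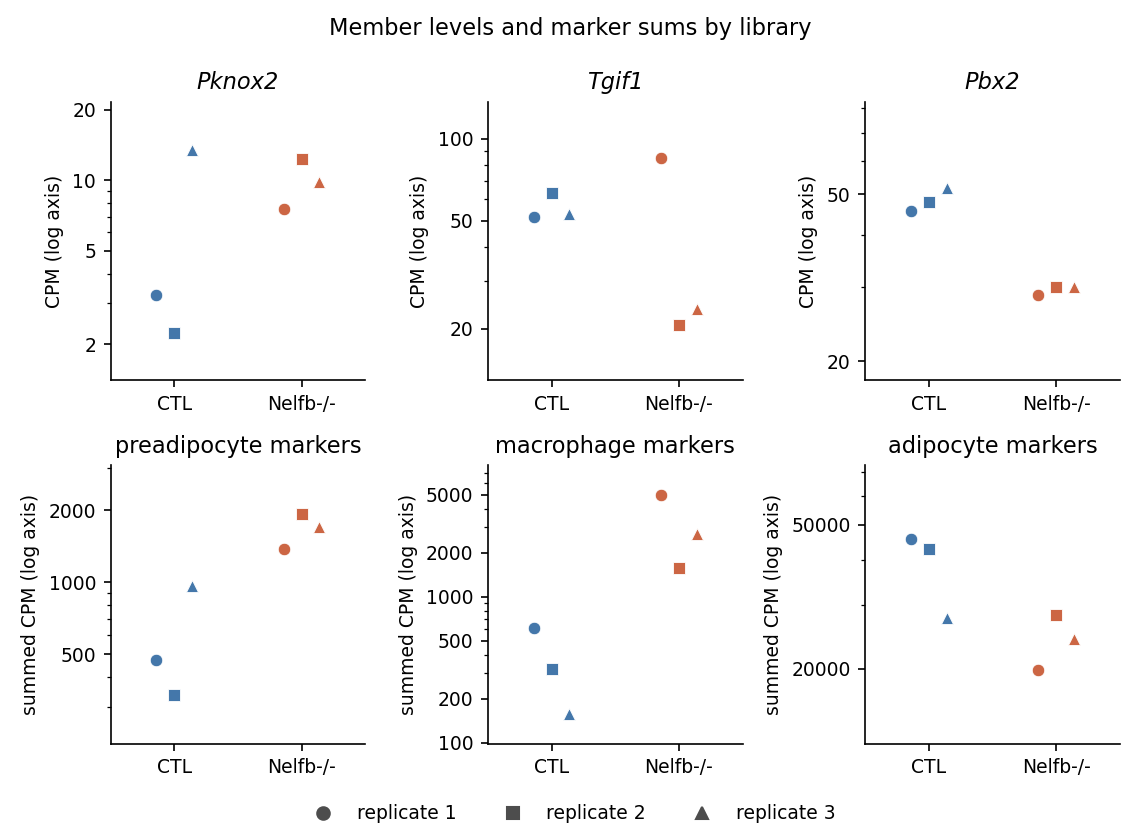
Upper row, CPM of Pknox2, Tgif1 and Pbx2 in each library on log axes. Lower row, summed CPM of the preadipocyte, macrophage and adipocyte markers in the same libraries, also on log axes (blue, CTL; orange, Nelfb-/-; symbols, replicate number; no error bars). CTL replicate 3 lies with the Nelfb-/- libraries for Pknox2 and for the adipocyte sum (27607 CPM), and Nelfb-/- replicate 1 is the highest library for Tgif1 (85.2 CPM) and for the macrophage sum (4971 CPM).

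Markers of other cell types differed between the groups as well, and in bulk libraries fewer cells of a type and less RNA per cell cannot be told apart. The 7 macrophage markers were all detected in every library, and their sums did not overlap between the groups. Sums of 4 melanocyte markers lay between 1.22 and 1.43 CPM in CTL and between 27.9 and 67.2 CPM in Nelfb-/- cells, with Tyrp1 and Mlana listed at 0 in CTL replicates 1 and 2. For the Schwann cell markers, of which 3 of 4 had a row, the sums lay between 17.8 and 21.5 CPM in CTL and between 80.3 and 104 CPM in Nelfb-/- cells, and for 6 skeletal muscle markers between 6.91 and 9.21 CPM and between 42.3 and 68.6 CPM. Myod1, a defining muscle gene, was listed at 0 in CTL replicates 1 and 3. The 4 keratinocyte markers summed to between 1.89 and 2.45 CPM in CTL and between 3.46 and 12.8 CPM in Nelfb-/- cells. Sums of 4 endothelial markers overlapped between the groups, with between 6.70 and 10.2 CPM in CTL and between 6.81 and 18.5 CPM in Nelfb-/- cells. Preadipocyte, macrophage, melanocyte, Schwann cell, muscle and keratinocyte sums were higher in every Nelfb-/- library than in any CTL library. For the preadipocyte sums this separation rests on Dlk1, which held 661, 1115 and 898 CPM in Nelfb-/- replicates 1, 2 and 3. Its CTL values were 53.9, 48.0 and 232 CPM. Of the 7 preadipocyte markers tested, 4 had groups that did not overlap. Cd34 overlapped, with a lower mean in Nelfb-/- cells (3.61 CPM, against 6.54 CPM in CTL). Its log2 fold change was nevertheless 0.15 (SE 0.99). The part of these marker sums in the levels of Pbx2, Meis2, Meis3 and Pknox1, whose libraries did not overlap either, was not tested.

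Levels of different genes were compared as CPM per kilobase of exon, where the order of the group means was the same in both groups. Pbx2 came first, with 13.3 CPM per kilobase ± 0.862 (SD, n = 3) in CTL and 8.14 CPM per kilobase ± 0.202 (SD, n = 3) in Nelfb-/- cells. It was followed by Tgif1, Meis3, Pknox1, Meis2, Meis1, Pbx3, Pknox2 and Pbx4. In CTL the libraries of neighbours in this order overlapped for Pknox1 and Meis2, for Meis1 and Pbx3 and for Pbx3 and Pknox2, so that these did not differ beyond their spread. In Nelfb-/- cells the overlaps were those of Pbx2 and Tgif1, of Tgif1 and Meis3, of Meis3 and Pknox1 and of Meis2 and Meis1. The place of Tgif1 in Nelfb-/- cells rests on replicate 1, with 15.1, 3.68 and 4.19 CPM per kilobase in replicates 1, 2 and 3. In replicates 2 and 3 it was below Meis3 (4.49 and 5.44 CPM per kilobase). Of the PREP genes Pknox1 was the higher, at 2.73 CPM per kilobase ± 0.586 in CTL and 4.29 ± 0.355 in Nelfb-/- cells (SD, n = 3). Meis3 had the highest level per kilobase among the MEIS genes, at 3.86 CPM per kilobase ± 0.187 in CTL and 5.30 ± 0.744 in Nelfb-/- cells (SD, n = 3), although its mean CPM was the lowest of the MEIS genes in both groups. The length used joins the exons of all annotated transcripts, 3.17 kilobases for Meis3, 10.5 for Meis1 and 12.0 for Meis2. The order per kilobase depends on that choice, and the transcripts in use were not determined.

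The other TALE genes included the Iroquois genes, which pattern many embryonic tissues and of which Irx3 and Irx5 are known for their links to fat mass. Of 8 listed genes, 6 had a row and 5 were tested, and 4 of these, all Iroquois genes, were downregulated at an adjusted p of 0.05 (5.83% of all genes tested). With the 2-fold limit added, 3 were downregulated (3.64% of all genes tested) and 0 upregulated. Irx3 fell from 31.8, 38.0 and 26.0 CPM in the CTL libraries to 10.7, 6.46 and 9.22 CPM in the Nelfb-/- libraries, and its log2 fold change was -1.87 (SE 0.25, adjusted p = 0.00750 by limma). Irx2 and Irx5 fell by 1.35 (SE 0.23) and 1.22 (SE 0.24) on the log2 scale (adjusted p = 0.0152 and 0.0207 by limma). The decrease of Irx1 was smaller, with a log2 fold change of -0.55 (SE 0.13, adjusted p = 0.0384 by limma). Groups did not overlap at these 4 genes either (16.1% of all genes tested, with Nelfb-/- cells lower). The call of Irx3 was kept when any library was left out (adjusted p at most 0.0439), whereas that of Irx1 was lost in each case (adjusted p 0.0503 to 0.126) and with no variance trend (0.0686). Irx2 missed the limit without CTL replicate 1, CTL replicate 2 or Nelfb-/- replicate 3 (adjusted p 0.0600, 0.0571 and 0.0681), and Irx5 missed it without CTL replicate 1, CTL replicate 2, Nelfb-/- replicate 2 or Nelfb-/- replicate 3 (adjusted p 0.0770, 0.0741, 0.0699 and 0.0807). Tgif2, the close relative of Tgif1, had a log2 fold change of 0.54 (SE 0.25, adjusted p = 0.188 by limma). The value for Tgif2 was 0.35 without CTL replicate 3 and 0.28 with quantile normalisation. With library quality weights Tgif2 was at 0.43 and passed the adjusted p (0.0447 by limma), where 60.7% of all genes passed. Neighbouring genes of the Iroquois clusters are not independent of each other.

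**Figure D4:**
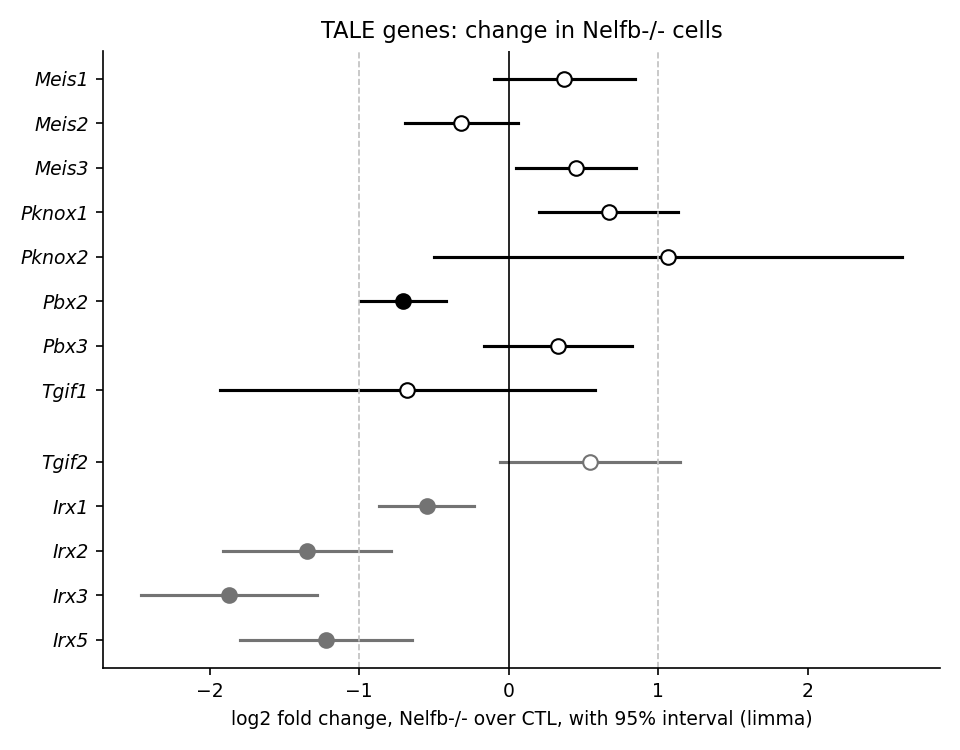
Log2 fold change of Nelfb-/- over CTL cells (points) with the 95% interval from limma (lines) for the 8 tested MEIS, PBX, PREP and TGIF1 genes (black) and 5 other TALE genes (grey). Filled points passed an adjusted p of 0.05, and dashed lines mark a 2-fold change. Pbx2 (-0.71) is the only filled point in the upper group, while the 4 Iroquois genes are filled and lie between -1.87 and -0.55.

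HOX genes, whose proteins bind DNA with PBX and MEIS and keep a record of position along the body, were read as a list of 39, of which 32 had a row and 29 were tested. At an adjusted p of 0.05, 0 of the 29 passed (limma), beside 15.8% of all genes tested, and 1 had an unadjusted p under 0.05 (32.5% of all genes). When libraries were weighted by their quality 10 of the 29 passed, where 60.7% of all genes passed, and without CTL replicate 3 it was 1, where 22.5% of all genes passed. Of the 29 genes, 18 had a log2 fold change below 0 and 11 above 0, with a median of -0.18, while 54.6% of all genes tested were above 0. Hoxa9, the gene with the smallest p and named for that after its values were seen, was at 25.7, 13.3 and 14.2 CPM in the CTL libraries and at 6.78, 10.2 and 10.2 CPM in the Nelfb-/- libraries. Its log2 fold change was -0.93 (SE 0.31, adjusted p = 0.0950 by limma). Trunk genes such as Hoxc6 (25.4 to 40.7 CPM) and Hoxc8 (21.2 to 50.6 CPM) were detected in every library.

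Among 7 partners and corepressors of these factors, all tested, 2 were upregulated at an adjusted p of 0.05 (9.96% of all genes tested) and 0 downregulated, and 3 had an unadjusted p under 0.05 (32.5% of all genes). Smad3, a transducer of TGF-beta signals with which TGIF1 binds, was at 21.2, 19.4 and 28.4 CPM in the CTL libraries and at 39.8, 45.0 and 45.7 CPM in the Nelfb-/- libraries. Its log2 fold change was 0.94 (SE 0.18, adjusted p = 0.0196 by limma). Hdac1, a histone deacetylase of corepressor complexes, rose from a mean of 26.5 CPM ± 7.31 (SD, n = 3) to 51.8 CPM ± 11.3 (SD, n = 3), with a log2 fold change of 0.98 (SE 0.26, adjusted p = 0.0489 by limma). Both calls were lost without CTL replicate 1, CTL replicate 2, Nelfb-/- replicate 2 or Nelfb-/- replicate 3 (adjusted p 0.0814, 0.0781, 0.0728 and 0.0943 for Smad3 and 0.150, 0.156, 0.147 and 0.171 for Hdac1). Under the other scalings of the libraries Hdac1 also missed the limit (adjusted p 0.0577 with median-of-ratios scaling and 0.0611 with quantile normalisation), as it did with a pseudocount of 0.1 reads (0.0506) and with no variance trend (0.0704). The remaining genes of the list (Pbxip1, Smad2, Ctbp1, Ctbp2 and Sin3a) had log2 fold changes between -0.36 and 0.31. Pbxip1, which binds PBX proteins and blocks their function, was the lowest of them, and it was at 94.4 CPM ± 4.57 in CTL against 73.6 CPM ± 4.68 in Nelfb-/- cells (SD, n = 3, adjusted p = 0.0899 by limma).

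The genes whose log2 values followed Meis1 most closely over the 6 libraries, among 14738 genes with a mean of at least 1 CPM, were Rab36, Epb41l4a and Cyb561d2 (Pearson r of 0.999, 0.998 and 0.997). For Pknox2 they were Rac3, Xylt2 and Slc39a3 (r of 0.996, 0.996 and 0.995). The points share the same 6 libraries, and the highest of many coefficients over so few points is high by selection. Rab36 was at 0.947, 0.840 and 2.79 CPM in the CTL libraries and at 2.28, 2.85 and 3.92 CPM in the Nelfb-/- libraries, and Rac3 was at 0.857, 0.700 and 2.89 CPM and at 1.85, 3.09 and 2.37 CPM. In both genes CTL replicate 3 was far above the other CTL libraries. None of the 6 genes passed the test between the groups (limma, adjusted p from 0.178 to 0.448).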

How the data were processed

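RNA of 3 CTL and 3 Nelfb-/- cultures was sequenced (total RNA, NovaSeq). The submitters' processing notes name STAR 2.7, Partek 9.0.20.0202 and the mm10 build, with no role or order. The authors deposited 1 table of gene values in CPM, to which an offset of 0.0001 had been added, and the offset was subtracted here. The lowest values of each library rose in steps that gave the worth of 1 read and the depth, but only 73.0% to 75.5% of values up to 20 reads were whole multiples (within 0.05 reads), so no count test was run. The values were brought to reads at a common depth of 22.3 M (M, 1e+06). Genes whose mean reached 10 reads (0.448 CPM) entered limma (3.58.1, in R 4.3.3), fitted to log2(reads + 1) with a variance trend, and p was adjusted by the Benjamini-Hochberg method over 16251 genes. On this scale a fold change of a low gene is understated. The limits were an adjusted p of 0.05 and a 2-fold change, those of the study. The test was first tested on simulated data. Replicates are separate samples by the labels, and p-values measure only the spread between these samples.

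Gene positions and exon lengths came from GENCODE vM21 (GRCm38), which matched 17520 of 17924 genes by name and chromosome, and promoter sequences from RefSeq (GRCm38.p6). Motifs were searched with Python 3.11.15. The genes named were the 9 genes, Nelfb, the genes of each list past the limits (at most the 3 largest changes in each direction), defining markers and the nearest genes in pattern to Meis1 and to the gene with the largest change. Other names are said to have been chosen after their values were seen, which holds for Gpsm3, Irx1, Smad3, Hdac1, Pbxip1, Tgif2, Hoxc6, Hoxc8, Plin4, Cidec and Cd34 too. Members and lists were chosen with earlier results of these data known, so that counts over them are descriptions. 1 gene of the family is not reported here.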

Additional observations from a re-analysis of the deposited data

How the results depend on the processing

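With a pseudocount of 0.1 or 10 reads, no filter, a minimum of 1 CPM, either other scaling or no variance trend, Pbx2 was the only one of the 9 genes past an adjusted p of 0.05 (limma), and no log2 fold change of the 9 genes changed sign under any alternative in which it was tested, Pbx4 apart, for which signs were not compared. Scaling moved the median log2 fold change of all genes from 0.07 to 0.00 (median of ratios) or -0.07 (quantile normalisation). With library quality weights 7 of 8 genes passed the adjusted p and 2 passed both limits, where 60.7% of all genes passed the adjusted p and 26.6% both limits, with log2 fold changes of 0.61 for Meis1, -0.24 for Meis2, 0.45 for Meis3, 0.82 for Pknox1, 1.78 for Pknox2 and -1.22 for Tgif1 (limma, adjusted p = 0.00224, 0.0459, 0.0111, 0.00153, 0.00160 and 0.00246), and 4318 of all genes, 2839 higher and 1479 lower, passed both limits. With single libraries left out, between 426 and 2480 genes passed, 290 to 1704 higher and 136 to 776 lower, while the log2 fold change lay between -0.75 and -0.66 for Pbx2, 0.50 and 0.82 for Pknox1, 0.55 and 1.83 for Pknox2, -1.33 and -0.31 for Tgif1, 0.28 and 0.55 for Meis1, -0.39 and -0.19 for Meis2, 0.36 and 0.56 for Meis3 and 0.18 and 0.45 for Pbx3. None of the 8 genes passed without CTL replicate 1, CTL replicate 2, Nelfb-/- replicate 2 or Nelfb-/- replicate 3, where 2.68% to 6.33% of all genes passed the adjusted p, while 3 passed without CTL replicate 3 (22.5% of all genes) and 2 without Nelfb-/- replicate 1 (18.3%). Samples with the same replicate number correlated at 0.52, -0.39 and 0.52 in their deviations from the group means, and CTL replicates 2 and 3 correlated best with another number than their own. With 3 libraries a group these correlations cannot show whether samples of the same number share a litter or batch. The labels name no pairing beyond the number. With the replicate number as a block, 2175 genes passed, Pbx2 kept its call (log2 fold change -0.71, limma, adjusted p = 0.0341), the other 7 genes did not pass, and Irx1 lost its call (adjusted p = 0.0662). At 3 libraries a group no permutation p can fall below 0.1, and Pbx4 was too shallow to compare.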
